A study of Mus musculus with 2 samples.

Results

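Cholesterol is built from acetyl-CoA in the cytosol and the endoplasmic reticulum, through mevalonate, squalene and lanosterol. When sterols run low in the membrane, the escort protein SCAP carries the transcription factor SREBP2 to the Golgi, where it is cut and released to activate the enzymes of the pathway, and INSIG proteins hold the complex back when sterols are plentiful. Surplus cholesterol is exported by ABC transporters under control of the liver X receptors, and the fat pad in which the mammary ducts grow is a large cholesterol store held by adipocytes. The genes described here are 27 members of this system, chosen by gene symbol from a table of 21113 genes. They comprise 18 enzymes of synthesis, 4 genes that control SREBP, 1 intracellular carrier and 4 genes of efflux and its nuclear receptor, with no lipoprotein uptake receptor among them.

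Mammary glands of C57BL/6 mice, taken at week 6 after birth, gave the polyadenylated RNA for 1 library of each of 2 genotypes. The first was homozygous for Mir212/132ILN, an allele in which an IRES-LacZ-Neo (ILN) cassette was inserted where miR-212 and miR-132 are encoded, and it is called ILN/ILN here. The second was wild type. The labels name no Cre line, treatment or pooling, and they do not say how many animals gave each sample. Fragments assigned to genes summed to 42953129 in ILN/ILN and 46133338 in wild type. With 1 library per genotype there is no replicate check and no test. Intervals in parentheses after a fold are exact 95% intervals on the fragments of a gene, they cover counting error alone, and they say nothing of differences between animals or dissections. In RNA from whole tissue, fewer cells of a type and less RNA per cell cannot be told apart.

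The summed levels of marker lists differed between the libraries for some cell types and lay close for others. All 8 adipocyte markers were measured, with summed deposited values of 49865 in ILN/ILN and 50438 in wild type. Macrophage markers summed to 2129 in ILN/ILN and 3007 in wild type, with a log2 ratio below 0 in 10 of 10, and B cell and T cell markers to 32.9 and 16.4 in ILN/ILN, against 170 and 43.7 in wild type. Luminal epithelial markers summed to 0.514 in ILN/ILN and 36.7 in wild type, and 2 of 6 had no fragment in ILN/ILN. Of the 4 basal markers, Krt5 and Krt14 had no fragment in ILN/ILN and 78 and 62 in wild type, while Trp63 was at 2.79 in ILN/ILN and 3.50 in wild type and Oxtr at 3.51 and 2.80. The 4 summed to 6.30 in ILN/ILN and 7.94 in wild type. The sums were 133 and 111 for endothelium, 2427 and 2225 for fibroblasts, 67.2 and 79.8 for Schwann cells and 9.84 and 11.3 for the sebaceous gland, ILN/ILN before wild type.

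The 3p strands of the microRNAs at the targeted locus are shown because a match to the seed is the usual mark of a direct target. The seed, bases 2 to 8, is in capitals and is the same in both. They lie on chromosome 11 (RefSeq, GRCm38.p6).
miR-132-3p: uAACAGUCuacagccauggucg
miR-212-3p: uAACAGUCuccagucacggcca

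A match to this seed in the longest annotated 3′ untranslated region (GENCODE M21) was found in 1 of 27 members, or 3.70%, against 1493 of 11326 measured genes, or 13.2%. The median region was 1462 bases long among members and 1301 among measured genes. The 1 member was Cyp51, and its site, in bases 1801 to 1807 of the region on chromosome 5, is shown with the match in capitals.
Cyp51 site: aaagtttgaaGACTGTTtgtttctaag

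Cyp51, which encodes the demethylase that acts on lanosterol, stood at 3.85 in ILN/ILN and 3.72 in wild type on the deposited FPKM-like scale, with 744 and 773 fragments. The libraries differed by less than counting error at this gene, at 1.03-fold (0.933 to 1.14). A match says only that these letters are present, and the absence of one in the other 26 members says nothing of regulation by other routes.

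Most of the cholesterol system was expressed at nearly the same level in both glands. Of the 27 members 25 were counted as measured, with a deposited value in 1 or both libraries that reached 1, and Hsd17b7 and Stard4 stayed below it. The median log2 ratio of fragments, ILN/ILN over wild type, was 0.03 for the 25 measured members, beside 0.02 for 11523 measured genes with a ratio. The 25th and 75th percentiles of the members lay at -0.14 and 0.20, beside -0.18 and 0.19 for all measured genes. None was at least 1.5-fold higher in ILN/ILN, where 2.85% of measured genes were, and 1, Mvd, was at least 1.5-fold lower, where 7.59% were. In a looser count, 3 of the 25 were at least 25% higher in ILN/ILN than in wild type, where 12.1% of measured genes were, and 4 were at least 25% higher in wild type than in ILN/ILN, where 15.7% were. The shares of members past these folds thus lay near those of all genes. The counting interval excluded a ratio of 1 in 68.0% of the members and in 62.5% of all measured genes, so an interval away from 1 was common at this depth. It lay wholly above 1 in 8 members and 33.2% of measured genes, and wholly below in 9 members and 29.3% of measured genes.

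**Figure D1:**
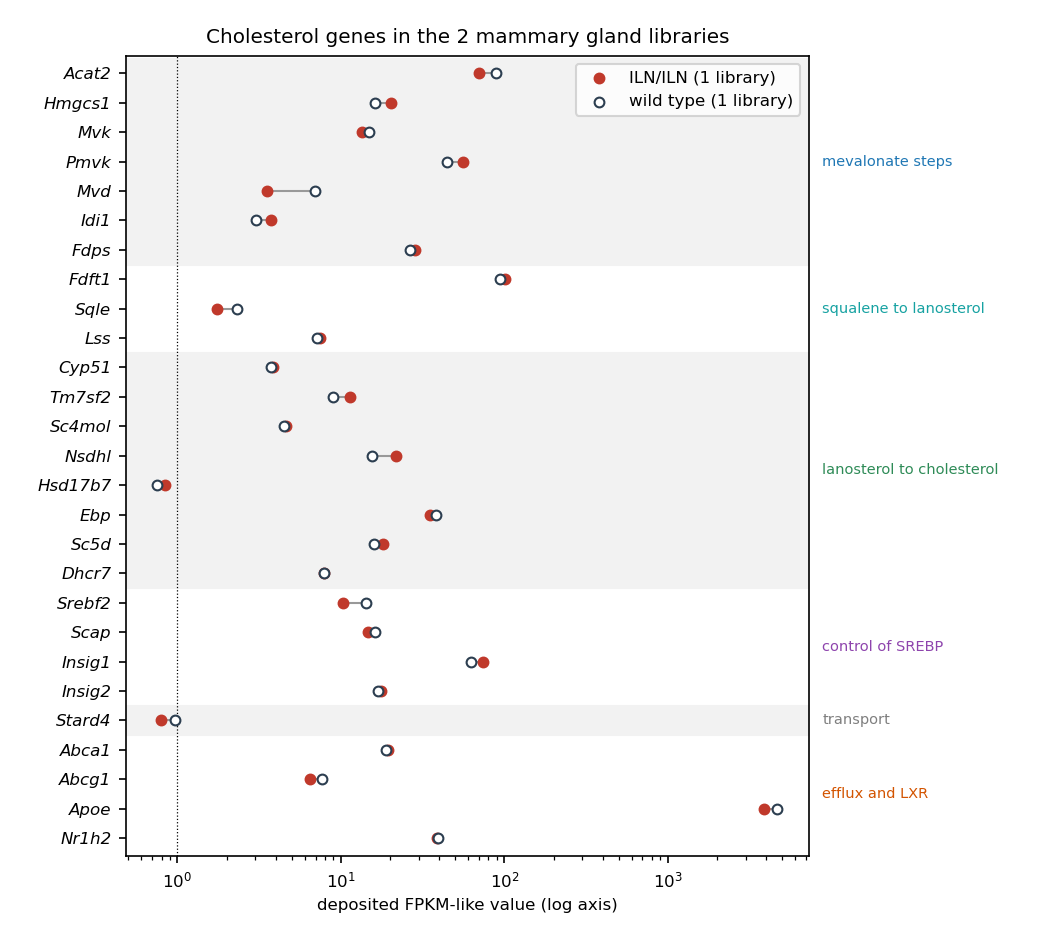
Deposited FPKM-like value of each member in the ILN/ILN (filled) and wild-type (open) library on a log axis, grouped by role, with 1 library per genotype and the dotted line at a value of 1. Apoe, at 3859 in ILN/ILN and 4688 in wild type, stands far right of all others, and the widest gap between the libraries belongs to Mvd.

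The enzymes of synthesis spanned a wide range of levels per length, and their order was much alike in both libraries. The ratio of the highest value to the lowest was 119 in ILN/ILN and 126 in wild type, with Fdft1 at the top and Hsd17b7 at the bottom in both. The 5 highest, Fdft1, Acat2, Pmvk, Ebp and Fdps, held the same places in both libraries, and Mvd moved furthest, with place 16 in ILN/ILN and place 13 in wild type. The 18 values summed to 409 in ILN/ILN and 400.2 in wild type. Fdft1 and Acat2 together gave 41.8% of that sum in ILN/ILN and 45.9% in wild type. The median synthesis enzyme stood at 12.4 in ILN/ILN and 11.9 in wild type, somewhat above the medians of all measured genes, 8.77 and 8.78.

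Of the 7 mevalonate enzymes 4 had a ratio above 1 and 3 below. Acat2, the thiolase that joins acetyl-CoA units at the entry of the pathway, stood at 70.5 in ILN/ILN and 89.2 in wild type, with 3557 and 4839 fragments. It was 1.27-fold lower in ILN/ILN (1.21 to 1.32), a ratio below that of all but 14.8% of measured genes. The next enzyme, the cytosolic HMG-CoA synthase encoded by Hmgcs1, lay on the other side, at 20.4 in ILN/ILN and 16.2 in wild type. Its 2960 and 2524 fragments made it 1.26-fold higher in ILN/ILN (1.19 to 1.33). The level of Acat2 was therefore 3.45 times that of Hmgcs1 in ILN/ILN and 5.51 times in wild type.

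The kinases that phosphorylate mevalonate in turn also lay on opposite sides of 1. Mvk, the first, was at 13.5 in ILN/ILN and 14.8 in wild type, with 1000 and 1181 fragments, and was 1.10-fold lower (1.010 to 1.20). Pmvk, the second, was at 55.6 and 44.6, with 1976 fragments in ILN/ILN and 1702 in wild type, and was 1.247-fold higher (1.17 to 1.33). Idi1, the isomerase that prepares the isoprene units for chain building, was at 3.77 in ILN/ILN and 3.01 in wild type and 1.249-fold higher (1.09 to 1.43). Fdps, which builds farnesyl diphosphate, was at 28.3 in ILN/ILN and 26.5 in wild type, with 1468 and 1476 fragments, and its interval held 1 (1.07-fold; 0.993 to 1.15).

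Mvd, the decarboxylase that makes the first isoprene unit, differed most among the 27 members. It stood at 3.52 in ILN/ILN and 6.91 in wild type, a quotient of 0.509 on the deposited scale. Its 257 and 416 fragments gave a smaller difference, 1.51-fold lower in ILN/ILN (1.29 to 1.77). Only 7.47% of measured genes had a lower ratio, and the interval reached to both sides of the 1.5-fold limit. The files list 2 isoforms for Mvd, and the deposited value takes the larger of an original estimate, made from all fragments of the gene, and a second, derived estimate. In ILN/ILN the original was the larger (159 against 141 per kilobase), and in wild type the derived one was (335 against 257). Mvd was the only member whose values came from different estimates in the libraries, so its fragments are the like-for-like measure. In all other members with several isoforms, Pmvk, Scap and Insig2, the original estimate was used in both.

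**Figure D2:**
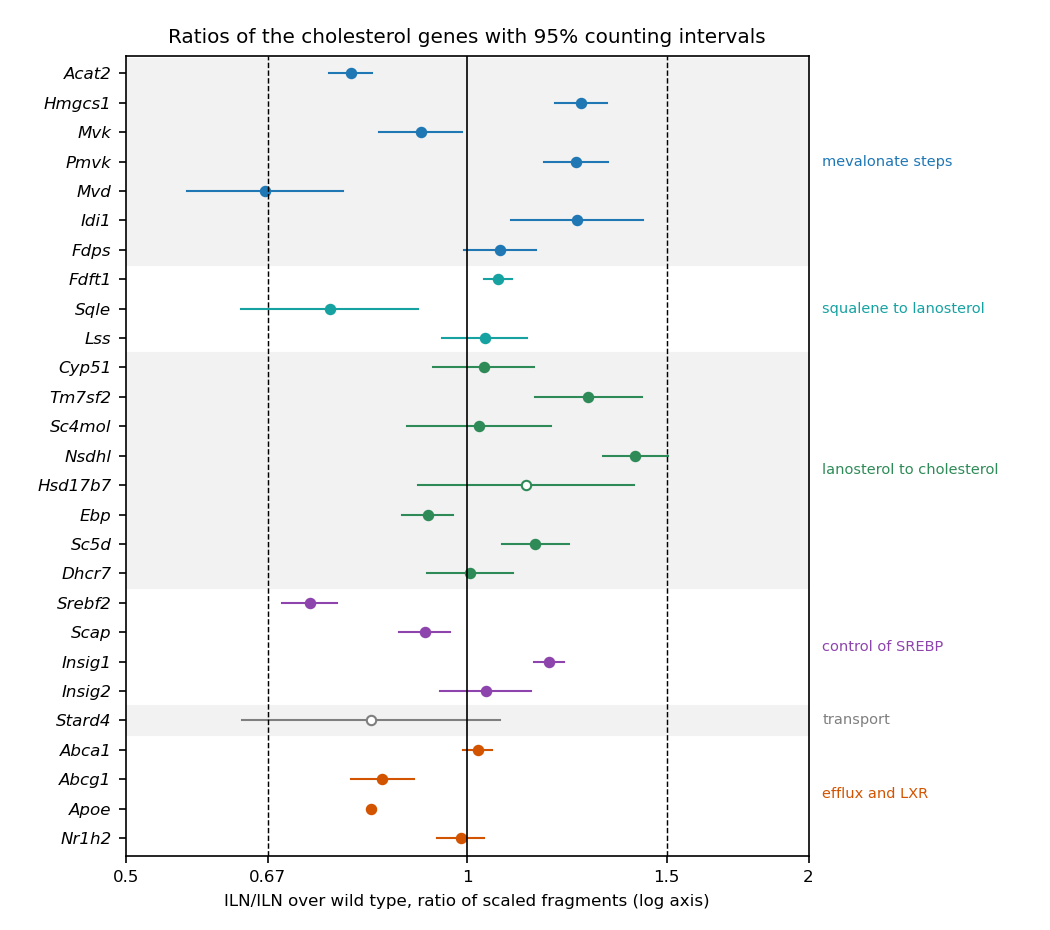
Ratio of scaled fragments, ILN/ILN over wild type, for each member on a log axis, with exact 95% counting intervals as bars, dashed lines at 1.5-fold either way and open points for members below a value of 1 in both libraries. Mvd, 1.51-fold lower, is the only point past a dashed line, and Nsdhl, 1.41-fold higher, lies nearest to the other.

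From squalene to lanosterol the pathway runs through 3 enzymes. Fdft1, the squalene synthase that commits farnesyl diphosphate to sterols, was at 100.4 in ILN/ILN and 94.3 in wild type, with 9576 and 9661 fragments (1.06-fold higher; 1.03 to 1.10). Sqle, the squalene epoxidase that is known as a rate-limiting step, was among the lowest members, at 1.75 in ILN/ILN and 2.32 in wild type. With 4.94 fragments per 1000000 in ILN/ILN and 6.52 in wild type it was 1.32-fold lower (1.11 to 1.58). Lss, the cyclase that closes the sterol rings, was at 7.44 in ILN/ILN and 7.18 in wild type, and its interval held 1 (1.04-fold; 0.951 to 1.13). Squalene synthase thus exceeded squalene epoxidase 57.2 times in ILN/ILN and 40.7 times in wild type on the deposited scale. Fdft1 overlaps Ctsb on the opposite strand in the annotation, as do Cyp51 with Akap9 and Mvd, the member past 1.5-fold, with the predicted gene Gm20388. Tm7sf2 overlaps Vps51 and Fdps overlaps Gm43738 on the same strand. Hmgcs1, Idi1, Lss, Scap and Insig2 each overlap a gene not annotated as coding on the opposite strand. The sources used here do not say whether counting was by strand, so fragments of these pairs could be shared. Acat2 has a close paralogue in mouse, Acat3, with which reads could be shared too.

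Of the 8 enzymes that turn lanosterol into cholesterol 7 were measured, 6 with a ratio above 1 and 1 below. Nsdhl, which removes a carboxyl group in the course of demethylation, had the highest ratio of all members. It was at 21.7 in ILN/ILN and 15.4 in wild type, with 2107 and 1608 fragments, and was 1.41-fold higher (1.32 to 1.503). Of all measured genes 4.76% had a higher ratio. Tm7sf2, a sterol reductase, was at 11.4 in ILN/ILN and 8.89 in wild type (1.28-fold higher; 1.15 to 1.43). Sc5d, which inserts a double bond into the ring, was at 18.2 in ILN/ILN and 15.8 in wild type (1.15-fold higher; 1.07 to 1.23).

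The rest of this stretch differed little. Ebp, the isomerase that shifts a ring double bond, was at 35.2 in ILN/ILN and 38.1 in wild type and 1.08-fold lower (1.03 to 1.14). Sc4mol, the methyl oxidase that works just before Nsdhl, was at 4.62 in ILN/ILN and 4.51 in wild type. Dhcr7, the reductase that yields cholesterol, was at 7.93 in ILN/ILN and 7.88 in wild type. The intervals of Sc4mol (1.02-fold; 0.884 to 1.18) and Dhcr7 (1.006-fold; 0.922 to 1.10) held 1. Hsd17b7, the keto-reductase that follows Nsdhl, had only 172 fragments in ILN/ILN and 164 in wild type (1.13-fold higher; 0.904 to 1.404). The interval of Nsdhl lay wholly above that of Sc4mol and overlapped that of Hsd17b7.

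The promoters of 3 members are printed, each running from 250 bases before to 50 after the annotated start (RefSeq, GRCm38.p6). They belong to the member with the highest ratio, the member with the lowest and the 1 searched member with an exact match to TCACNCCAC. That string is written here for the sterol regulatory element. Variants of the element were not searched, so members without a match may still carry one. Capitals mark CCAAT, or ATTGG where it lies on the other strand, and TCACNCCAC. CCAAT is the box bound by NF-Y, a known partner of SREBP. The windows lie at chrX:72918271-72918570 (plus strand) for Nsdhl, chr8:122443373-122443672 (minus strand) for Mvd and chr13:119690101-119690400 (plus strand) for Hmgcs1.
Nsdhl: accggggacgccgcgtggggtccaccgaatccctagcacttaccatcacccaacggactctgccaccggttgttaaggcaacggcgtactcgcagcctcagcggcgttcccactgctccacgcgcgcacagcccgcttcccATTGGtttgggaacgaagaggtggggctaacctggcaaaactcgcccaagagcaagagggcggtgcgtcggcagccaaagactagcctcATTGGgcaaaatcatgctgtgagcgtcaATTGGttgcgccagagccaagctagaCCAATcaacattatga
Mvd: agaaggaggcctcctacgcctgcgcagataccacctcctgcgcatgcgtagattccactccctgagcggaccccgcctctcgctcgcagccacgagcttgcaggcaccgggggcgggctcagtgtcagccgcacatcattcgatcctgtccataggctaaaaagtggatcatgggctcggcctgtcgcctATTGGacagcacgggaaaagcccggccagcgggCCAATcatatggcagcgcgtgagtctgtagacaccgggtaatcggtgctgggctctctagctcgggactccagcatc
Hmgcs1: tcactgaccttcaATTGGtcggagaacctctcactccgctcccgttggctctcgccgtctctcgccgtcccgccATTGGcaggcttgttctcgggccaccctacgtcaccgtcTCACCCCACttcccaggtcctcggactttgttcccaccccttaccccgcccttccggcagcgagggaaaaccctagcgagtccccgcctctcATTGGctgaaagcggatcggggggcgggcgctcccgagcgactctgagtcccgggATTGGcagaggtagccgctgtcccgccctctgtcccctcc

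Searched on both strands, CCAAT was present in a promoter of 14 of the 15 synthesis members in the table, or 93.3%, and in 9 of them a single promoter held it more than once. It was present for 3 of 7 other members and for 42.4% of 9223 measured genes, and 1516 of these 9223 held it more than once in a single promoter. Per promoter the shares were 14 of 18 for the synthesis members, or 77.8%, and 37.0% over measured genes. For more than 1 copy they were 50% and 13.7%. Nsdhl carried 4 copies and Mvd 2, so the members with the highest and the lowest ratio both had the box. Hmgcs1 carried 4 copies and, among the 22 members searched, the only exact match to TCACNCCAC, which 1.37% of measured genes had. GGGCGG, the core of the Sp1 box, was found for 14 of 15 synthesis members and for 69.2% of measured genes. In the 30 member promoters 0 pairs of matches to different motifs shared a base. These matches are a description of the window and not of binding. Promoters of 22 of the 27 members were in the table.

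The genes that control SREBP pointed in different directions. Srebf2, which encodes SREBP2, stood at 10.3 in ILN/ILN and 14.2 in wild type, with 2097 and 3101 fragments. It was 1.38-fold lower (1.30 to 1.46), and 10.5% of measured genes had a lower ratio. Its escort gene Scap was at 14.7 in ILN/ILN and 16.1 in wild type, 1.09-fold lower (1.04 to 1.15). Insig1, an anchor that is itself a target of SREBP, was at 74.3 in ILN/ILN and 62.9 in wild type, with 8703 and 7924 fragments, and was 1.18-fold higher (1.14 to 1.22). Its paralogue Insig2 was at 17.5 in ILN/ILN and 16.9 in wild type, with 889 and 920 fragments, and its interval held 1 (1.04-fold; 0.945 to 1.14). Insig1 exceeded Insig2 by 4.24 times in ILN/ILN and 3.73 times in wild type, and exceeded Srebf2 by 7.20 times in ILN/ILN and 4.43 times in wild type.

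The enzymes downstream were mixed in direction, some on the side of Srebf2 and more on the other. Of the 17 measured synthesis enzymes 12 had a ratio above 1 and 5 below, beside 52.7% and 47.3% of all measured genes, and their median log2 ratio was 0.05. The interval lay wholly above 1 in 7 of the 17, wholly below in 5 and held 1 in 5. Among all measured genes it lay wholly above 1 in 33.2% and wholly below in 29.3%, so intervals on both sides were common. Pooled over the 18 enzymes, fragments were 1.05-fold higher in ILN/ILN (1.03 to 1.06). The pool weights enzymes by their fragments, and Fdft1 gave 9576 of its 32099 in ILN/ILN. On the deposited scale the sum of the 18 was 1.02 times that of wild type. No enzyme passed 1.5-fold except Mvd.

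**Figure D3:**
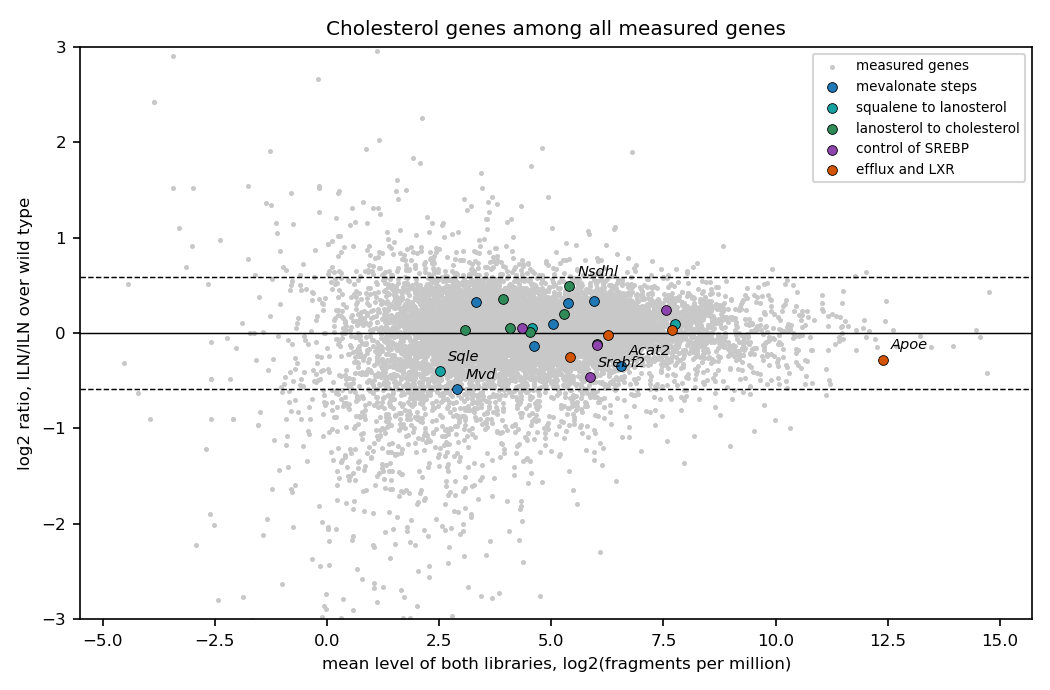
Log2 ratio of each measured gene, ILN/ILN over wild type, against its mean level in both libraries, with the 25 measured members coloured by role, dashed lines at 1.5-fold and 57 genes beyond the plotted limit of 3 not shown. The members lie inside the cloud of all genes at every level.

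Among the genes of transport and efflux, Apoe was by far the most abundant. The apolipoprotein it encodes carries cholesterol away from macrophages and adipocytes, and it ranked 10 among all genes in both libraries. It was at 3859 in ILN/ILN and 4688 in wild type, with 207830 and 271304 fragments. These made 0.484% of the ILN/ILN library (Wilson 95% interval 0.482% to 0.486%) and 0.588% of the wild-type library (0.586% to 0.590%). Apoe was 1.22-fold lower in ILN/ILN (1.21 to 1.22), and 17.9% of measured genes had a lower ratio. Because it dominates sums, the summed value of all members was 4450 in ILN/ILN and 5265 in wild type, but 591 and 577 without it.

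The transporters differed from each other. Abca1, which loads cholesterol onto apolipoprotein A-I, was at 19.4 in ILN/ILN and 18.9 in wild type, with 8907 and 9364 fragments, and its interval held 1 (1.02-fold; 0.992 to 1.05). Abcg1, which passes cholesterol to mature lipoproteins and is prominent in macrophages, was at 6.48 in ILN/ILN and 7.69 in wild type, with 1682 and 2146 fragments. It was 1.19-fold lower (1.11 to 1.27). Nr1h2, the liver X receptor beta, was at 38.6 in ILN/ILN and 39.1 in wild type, and its interval held 1 (1.013-fold lower; 0.966 to 1.06). Stard4, which carries cholesterol between membranes inside the cell, was below the level counted as measured, at 0.798 in ILN/ILN and 0.969 in wild type with 105 and 137 fragments, and no difference was detectable at this depth (1.21-fold lower; 0.935 to 1.58).

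Macrophage markers lay on the same side of 1 as Apoe and Abcg1. All 10 were lower in ILN/ILN, with ratios between 0.0502 for Marco and 0.884 for Emr1 and a median log2 ratio of -0.53, and none was at 0 in either library. The defining gene Csf1r was at 93.4 in ILN/ILN and 132 in wild type, and Lyz2 at 836 and 990. Adipocyte markers had a median log2 ratio of 0.06, with 6 of 8 above 0 and ratios from 0.954 for Cidec to 1.32 for Plin1. Luminal and lymphocyte markers were lower in ILN/ILN as well, as given above. The part of any of these cells in the ratios of Apoe, Abcg1 or other members was not tested.

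**Figure D4:**
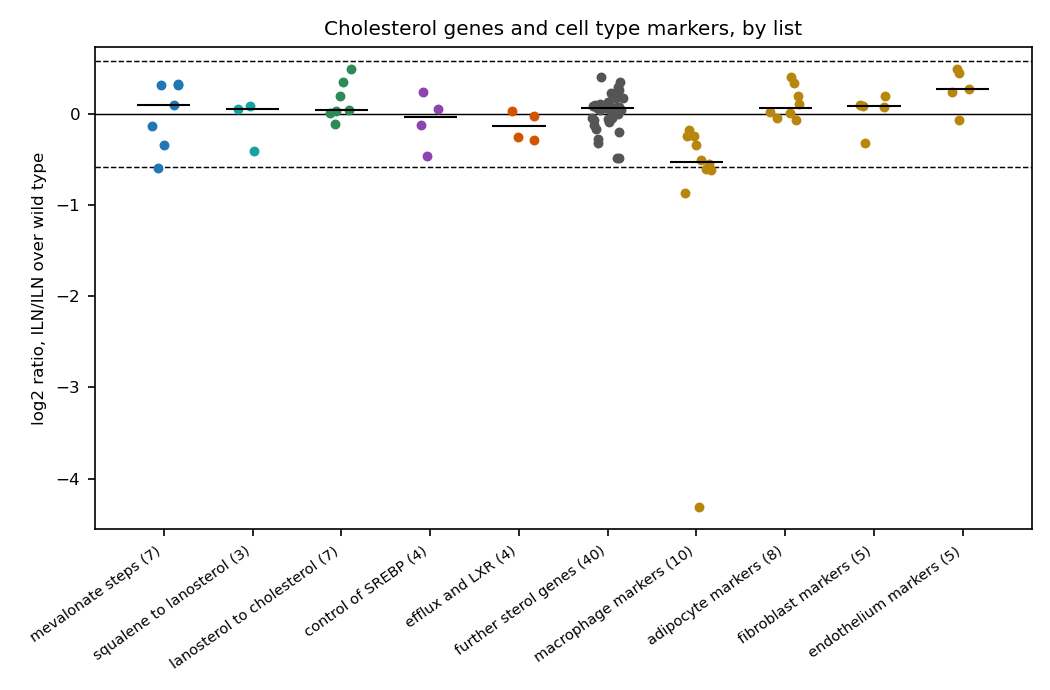
Log2 ratio, ILN/ILN over wild type, of each measured gene in the role groups (Stard4 was not measured), the wider sterol list and 4 marker lists, with the number of genes in brackets, black bars for medians and dashed lines at 1.5-fold. All cholesterol groups centre near 0, with efflux and LXR at -0.13, and the macrophage markers centre at -0.53 with Marco lowest.

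Srebf2 is also the host of miR-33, a microRNA that is known to restrain the efflux transporters. In the annotation of GRCm38.p6 its mature 5p strand lies at chr15:82198127-82198147, inside the Srebf2 gene on the same strand. The seed of miR-33 is in capitals here, followed by its matches in the untranslated regions of the members that have them.
miR-33-5p: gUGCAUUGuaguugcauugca
Abca1 first site: tgacactattCAATGCAatgcacttca
Abca1 second site: ctattcaatgCAATGCActtcaatgca
Abca1 last site: caatgcacttCAATGCAacgagaacac
Abcg1 first site: taacgcaacgCAATGCAacgcaatgca
Abcg1 second site: caatgcaacgCAATGCAgacagtgctg
Nsdhl site: agtgatggtgCAATGCAatggtacagt

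Matches to this seed were found in 3 of 27 members, or 11.1%, against 7.73% of measured genes. Abca1 held 3, starting at bases 135, 140 and 150 of its region, and the first and second overlap. Abcg1 held 2, at bases 717 and 727, and Nsdhl 1, at base 560. Host and matched genes stood in no common order. Srebf2 was 1.38-fold lower in ILN/ILN, Abca1 differed by less than counting error, Abcg1 was 1.19-fold lower and Nsdhl 1.41-fold higher. Mature miR-33 was not measured by this polyadenylated RNA library.

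A wider list of 51 sterol genes gave the setting of the members. It covers lipoprotein receptors, lysosomal export, esterification, oxysterol formation, oxysterol binding and protein turnover in the endoplasmic reticulum, and 40 of its genes were measured. None of these 40 was 1.5-fold higher or lower in ILN/ILN, where 2.85% and 7.59% of all measured genes were. Of the 40, 26 had a ratio above 1 and 14 below, beside 52.7% and 47.3% of all measured genes, and the median log2 ratio was 0.07. Among genes of the list too low to count as measured, some were more than 1.5-fold lower and none as much higher. Cyp39a1, for example, had 56 fragments in ILN/ILN and 126 in wild type (2.09-fold lower; 1.52 to 2.92). The share past 1.5-fold among all genes this low was not worked out, so these low genes give no result about sterol genes. Pltp, a phospholipid transfer protein of plasma lipoproteins, was at 317 in ILN/ILN and 443 in wild type (1.398-fold lower; 1.37 to 1.42). Gramd1a, a sterol transporter between the plasma membrane and the endoplasmic reticulum, was at 35.1 in ILN/ILN and 49.1 in wild type (1.398-fold lower; 1.34 to 1.45). Tmem97, a sterol-regulated membrane protein, was at 9.63 in ILN/ILN and 12.04 in wild type (1.2505-fold lower; 1.12 to 1.399). Erlin1, a cholesterol-binding protein of the endoplasmic reticulum, was at 7.45 in ILN/ILN and 5.84 in wild type (1.28-fold higher; 1.16 to 1.3997).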

How the data were processed

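Per the labels' protocols, total RNA of mammary gland was selected for poly(A), fragmented, copied with random hexamers, marked with dUTP on the second strand and sequenced on 2 lanes per sample. Bowtie 0.12.3, TopHat 1.4.1, bedtools and the build mm9 appear in the submitters' processing notes without a role or order. The sources used here do not name the program behind the gene tables, its annotation, filters or use of strand.

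Per the file headers, the deposited FPKM-like value is scaled for gene length and library size, and it served to compare levels between genes. The deposited log2 column is log2(value + 1). The deposited signal per kilobase comes as an original, a derived and a final column, and the final one is the larger. The original times the deposited length was whole, within 0.01, in 100% of genes with a value, and is called fragments here. Such fragments lack molecular identifiers and are not independent molecules.

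Ratios are fragments over the library sum, with exact conditional (Clopper-Pearson) 95% intervals (SciPy 1.17.1). A library at 0 was set at 3 fragments, which is 0.0698 and 0.065 fragments per 1000000 of the ILN/ILN and wild-type sums. The ratio and interval steps were run on simulated counts that held counting error alone, the error these intervals assume. That run checks the calculation and cannot show how the intervals perform on real libraries. Genes with a deposited value of at least 1 in either library counted as measured (11556, of which 11523 had a ratio). Members and lists were chosen with earlier results of these data known. All members are named, with at most 6 further sterol genes by absolute log2 ratio, and some values are not reported here. Alternatives covered scaling, the pseudocount on deposited values, the minimum and the fold. The reference build (GRCm38) differs from mm9, so it served only for names, sequences and positions in that reference.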

Additional observations from a re-analysis of the deposited data

How the results depend on the processing

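No paired analysis was possible because each genotype had 1 library. The ratio kept its side of 1 in all 27 members under each of the 6 alternatives of scaling or measure, which were a median of ratios, TMM, the authors' constant and the deposited values with pseudocounts of 1, 0.1 and 5. The other scalings shifted ratios by at most 0.00256 on the log2 scale. The count of members at least 1.5-fold lower was 1 and became 0 with a pseudocount of 5 and at a fold of 2. With the fold lowered to 25% above the other library it was 4, and the count of higher members, 0 otherwise, was 3. The median log2 ratio of the members ranged from 0.02 (pseudocount of 5) to 0.04 (TMM) around 0.03. Mvd moved outside its counting interval, to -0.95 from -0.59, on deposited values with a pseudocount of 0.1, which use different estimates in the libraries. With a pseudocount of 5, 4 members moved outside theirs toward 0, namely Sqle, Nsdhl, Srebf2 and Abcg1. That constant shrinks all ratios and does so most at low values, though Nsdhl and Srebf2 stood above the median of measured genes. Depth limits Hsd17b7 and Stard4 most, with fewer than 200 fragments each.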

Other observations

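Some further genes known as targets of the liver X receptors in macrophages are set beside Abca1, Abcg1 and Apoe, a choice made after seeing their values. The choice is not a full list of such targets. It leaves out Pltp, 1.398-fold lower in ILN/ILN as given above, and Lpl, listed here as an adipocyte marker and 1.26-fold higher. Apoc1, the small apolipoprotein encoded next to Apoe, was at 488 in ILN/ILN and 590 in wild type (1.21-fold lower; 1.17 to 1.247), close to the 1.22-fold of Apoe. Srebf1, which encodes the factor of fatty acid synthesis, was at 135 in ILN/ILN and 146 in wild type (1.08-fold lower; 1.07 to 1.10). Mylip, a ligase that removes lipoprotein receptors, was at 25.3 in ILN/ILN and 26.9 in wild type (1.06-fold lower; 0.990 to 1.14), and Nr1h3, the liver X receptor alpha, at 107 in ILN/ILN and 102 in wild type (1.04-fold higher; 1.011 to 1.08). Macrophage markers were lower in ILN/ILN too, and their part in these values was not tested.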
